A study of Rattus norvegicus with 25 samples.

Results

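Gingiva of rats with experimental periodontitis (EP) that received a zinc oxide nanoparticle (ZNP) hydrogel was compared with gingiva of EP rats that did not, by RNA sequencing. The members are the 5 ZNP gel libraries and the 5 EP libraries as labelled, 10 of the 25 libraries of the series, with 1 library per rat. All rats were wild-type Sprague-Dawley animals, given as 8 weeks old in the methods and as 6 weeks old in the labels. In both groups silk thread was tied around the first upper molars on both sides and Porphyromonas gingivalis was smeared on it. ZNP gel rats then received 200 μL of hydrogel with 2 mg/mL of ZNPs in the periodontal pockets weekly for 4 weeks. Neither the labels nor the methods say if drug-free hydrogel was placed in EP rats. The remaining groups, of 5 rats each, were sham (hydrogel only), Cur gel (curcumin) and Cur/ZNP gel (both agents, each at a lower dose). The sources used here give neither the hour at which gingiva was taken nor litter or cage, so p-values measure the spread between these rats alone.

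The values are reads per transcript divided by 1 size factor per library and summed per gene, called normalized counts below. EP libraries held 61292453 to 70801162 reads and ZNP gel libraries 59749001 to 81791804. Of 30547 genes, 16092 reached 2 CPM in 1 or more libraries, and limma was run on their log2(normalized count + 1) values. A gene counts as changed at a Benjamini-Hochberg adjusted p under 0.05, and fold changes are ZNP gel against EP on that log2 scale, which understates the change of genes with low counts. Keratin genes that mark gingival epithelium were high in all 10 libraries, with Krt5 at 34582 to 136330 in EP and 52638 to 134771 in ZNP gel. Nearby tissue was present as well, since 25 skeletal muscle genes summed to 514750 to 2507910 in EP and 459876 to 4083670 in ZNP gel. Salivary gland genes, 14 in number, summed to 305949 to 9647640 in EP and 258877 to 6470030 in ZNP gel. Their highest sums were in EP 2 and ZNP gel 2, which stay in the fits without EP 3 and EP 4. EP 3 and EP 4 stood apart: 16 genes of nasal glands took 16.8% and 20.9% of their reads, against 0.00713% to 0.0766% in the other EP libraries and 0.0118% to 0.0581% in ZNP gel. List medians, and each gene whose direction turned without these rats, are therefore given with and without them. Sham 4 stood apart in the same way, with 22.2% of its reads in these genes, and it enters the fit of all 25 libraries and the sham means.

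Almost every cell runs a circadian clock, a loop in which the factors CLOCK and BMAL1 switch on genes whose products then switch them off. BMAL1 and CLOCK bind the E-box CACGTG and drive the period genes (Per), the cryptochromes (Cry) and Nr1d1, which encodes the nuclear receptor REV-ERBα. PER and CRY proteins repress BMAL1 and CLOCK, and REV-ERBα represses Bmal1 (Arntl in these files) and Cry1. Zinc that enters a cell is bound by metallothioneins and exported by SLC30 transporters, with metallothioneins and SLC30A1 induced through the zinc-sensing factor MTF1, while SLC39 transporters carry zinc into the cytosol.

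ZNP gel gingiva differed from EP gingiva in 1 gene at the threshold, Nr1d1, which was lower in ZNP gel (1 of 16092 genes, 0.00621%). Cry1 came next, about 2 times as high in ZNP gel and not past the threshold. An unadjusted p under 0.05 was given to 481 genes (2.99%), of which 259 (1.61%) were higher and 222 (1.38%) lower in ZNP gel. Every rat of 1 group lay above every rat of the other in 90 genes (0.559%), 43 of them higher (0.267%) and 47 lower (0.292%) in ZNP gel. If the groups did not differ, a gene would be apart in this way with probability 0.00794. It would have an unadjusted p under 0.05 with probability 0.05. Neither share over all genes was above these values. The median log2 fold change over all genes was 0.0056, and 51.3% of genes had one above 0. A log2 fold change of at least 1 in size was seen in 656 genes, 161 higher and 495 lower in ZNP gel. The median 95% interval, not adjusted over genes, reached 0.52 on either side of the fold change. EdgeR on the recovered reads called 0 genes (705 at an unadjusted p under 0.05) and DESeq2 called 61 of 16079 (0.379%), which are described further on. In bulk gingiva, fewer cells of a type and less RNA per cell cannot be told apart.

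**Figure D1:**
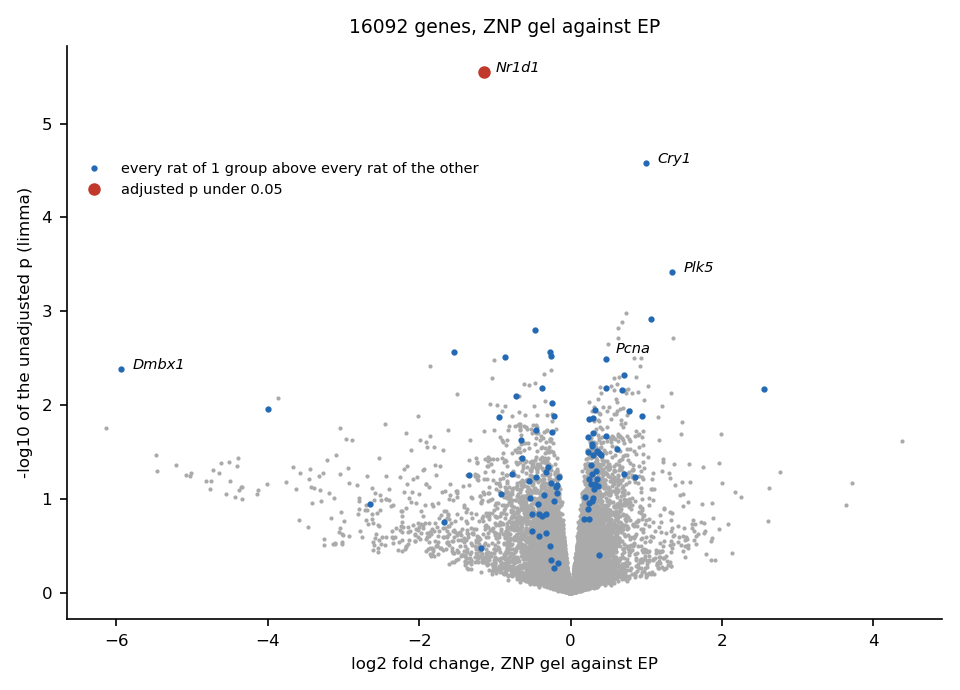
Log2 fold change of ZNP gel against EP (horizontal) and -log10 of the unadjusted limma p (vertical) for 16092 genes, with 90 genes whose groups do not overlap in blue. Nr1d1, in red at a fold change of -1.14, is the single gene past the adjusted threshold, and Cry1 lies next to it in p on the higher side.

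Since both leading genes belong to the clock loop, the stretches before the start sites of the leading clock genes are shown where they hold a known clock motif. They are RefSeq promoter windows of assembly GRCr8, 250 bases upstream of the start, and are not on the build of the expression files (Rnor_6.0). Of 27 clock genes 21 had an entry, with 23 windows, and Cry1 had none. Searched on both strands were the E-box CACGTG, the D-box TTATGNAA bound by DBP and its relatives, and AGGTCA, the core of the site bound by REV-ERBα and ROR receptors. These stood in 6, 1 and 2 of the 23 clock windows, and in 5.59%, 3.28% and 14.1% of 33469 promoter windows of the same length. No matches overlapped. The E-box in the window of the inner Nr1d1 start begins 191 bases upstream, that of Bhlhe41 48 bases upstream, and those of Ciart 93, 35 and 21 bases upstream, while the D-box of Per2 begins 192 bases upstream. The windows of the outer Nr1d1 start and of Dbp hold none of the 3 motifs. Bhlhe40, Tef and Klf15 also hold E-boxes, and Arntl and Nr1d2 hold AGGTCA, in windows that are not shown. The windows shown, all on the minus strand, lie at chr10:84229455-84229704 (Nr1d1), chr4:180569356-180569605 (Bhlhe41), chr2:186112247-186112496 (Ciart) and chr9:99496994-99497243 (Per2), and capitals mark the motifs.
Nr1d1 inner start: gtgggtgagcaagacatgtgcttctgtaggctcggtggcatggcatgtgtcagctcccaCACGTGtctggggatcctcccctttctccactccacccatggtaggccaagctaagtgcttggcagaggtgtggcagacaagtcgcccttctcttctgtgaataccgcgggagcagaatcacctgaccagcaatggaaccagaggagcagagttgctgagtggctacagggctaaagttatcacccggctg
Bhlhe41: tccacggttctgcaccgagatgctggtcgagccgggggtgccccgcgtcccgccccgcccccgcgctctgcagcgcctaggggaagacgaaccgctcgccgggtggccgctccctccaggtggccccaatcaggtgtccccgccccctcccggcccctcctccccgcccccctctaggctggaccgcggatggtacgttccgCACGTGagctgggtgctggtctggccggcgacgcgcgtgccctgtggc
Ciart: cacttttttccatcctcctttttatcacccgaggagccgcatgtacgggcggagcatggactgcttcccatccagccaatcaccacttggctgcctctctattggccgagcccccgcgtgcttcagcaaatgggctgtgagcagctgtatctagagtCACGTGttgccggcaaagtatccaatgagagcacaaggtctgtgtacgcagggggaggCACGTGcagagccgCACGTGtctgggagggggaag
Per2: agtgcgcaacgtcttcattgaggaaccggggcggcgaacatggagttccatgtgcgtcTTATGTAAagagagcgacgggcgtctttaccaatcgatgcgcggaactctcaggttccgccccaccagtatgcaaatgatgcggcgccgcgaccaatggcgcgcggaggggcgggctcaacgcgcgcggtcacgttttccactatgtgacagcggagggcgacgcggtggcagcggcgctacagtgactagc

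Nr1d1 lies on the minus strand of chromosome 10 (86683875 to 86690815 in Rnor_6.0). Its normalized counts were 11805, 12230, 9713, 8677 and 9163 in EP 1 to EP 5 and 5957, 4937, 5861, 3079 and 4065 in ZNP gel 1 to ZNP gel 5. Each ZNP gel rat lay below each EP rat. The group means were 10318 ± 1602 (SD, n = 5) and 4780 ± 1223, a log2 fold change of -1.14 (SE 0.183, 95% interval -1.52 to -0.76, adjusted p = 0.0449). Both Nr1d1 transcripts were lower in ZNP gel. ENSRNOT00000012537.7, which held 93.8% to 97.4% of the gene's reads, averaged 9818 in EP and 4560 in ZNP gel, a ratio of 0.464, and ENSRNOT00000055333.2 averaged 499.9 and 220.2, a ratio of 0.440. The last 1059 bases of the gene overlap the end of Thra, a thyroid hormone receptor gene on the other strand, and whether reads were counted by strand is not given in the sources used here. Thra averaged 3706 ± 1071 in EP and 3399 ± 776 in ZNP gel (log2 fold change -0.11, adjusted p = 1).

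The direction of Nr1d1 held in each of 24 other settings (log2 fold change -1.24 to -0.99), whereas the call held in 8 of them. Leaving out 1 library kept the call without ZNP gel 1 (adjusted p = 0.0321) or ZNP gel 3 (0.0366) and ended it without any of the other 8 (0.0657 to 0.271), and the 2 groups fitted alone gave an adjusted p of 0.979. Leaving sham 4 out of the shared fit also ended the call (adjusted p = 0.0659). By tool, the adjusted p was 0.102 in edgeR and 6.67e-06 in DESeq2. Without EP 3 and EP 4 the log2 fold change was -1.24 (adjusted p = 0.193 in limma and 0.000458 in DESeq2).

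Cry1, whose protein is a main repressor of CLOCK and BMAL1, had counts of 931, 541, 633, 981 and 838 in the EP rats and 1232, 1471, 1342, 1707 and 2010 in the ZNP gel rats. The groups did not overlap, here in the direction opposite to Nr1d1. The log2 fold change was 1.00 (SE 0.189, 95% interval 0.61 to 1.39), with an adjusted p of 0.211 in limma and 0.000255 in DESeq2, and it was 1.03 without EP 3 and EP 4. Per2, a period gene and a partner of CRY1, had counts of 4964, 4177, 4659, 7677 and 5205 in EP and 7076, 7947, 9842, 10015 and 8668 in ZNP gel. EP 4 alone reached into the ZNP gel range, and the log2 fold change was 0.73 (adjusted p = 1).

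Bhlhe41, an E-box repressor also known as DEC2, went the way of Nr1d1, with 1369, 2018, 1889, 1127 and 935 in EP and 921, 840, 678, 640 and 823 in ZNP gel. These groups did not overlap, although EP 5 and ZNP gel 1 lay close together (log2 fold change -0.86, adjusted p = 1). Dbp, an output factor that BMAL1 and CLOCK drive directly, had 18710, 19118, 22070, 23701 and 14587 in EP and 11308, 15850, 9776, 6643 and 10301 in ZNP gel. Here ZNP gel 2 lay within the EP range (log2 fold change -0.90, adjusted p = 1). Ciart, a repressor of CLOCK and BMAL1, had 1084, 1022, 1058, 1063 and 808 in EP and 689, 1092, 539, 358 and 607 in ZNP gel. ZNP gel 2 was the highest of the 10 in Ciart, and the other 4 ZNP gel rats lay below every EP rat (log2 fold change -0.70, adjusted p = 1). The differences in Per2, Bhlhe41, Dbp and Ciart therefore did not pass the threshold, and without EP 3 and EP 4 those of Dbp and Ciart no longer had an unadjusted p under 0.05.

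**Figure D2:**
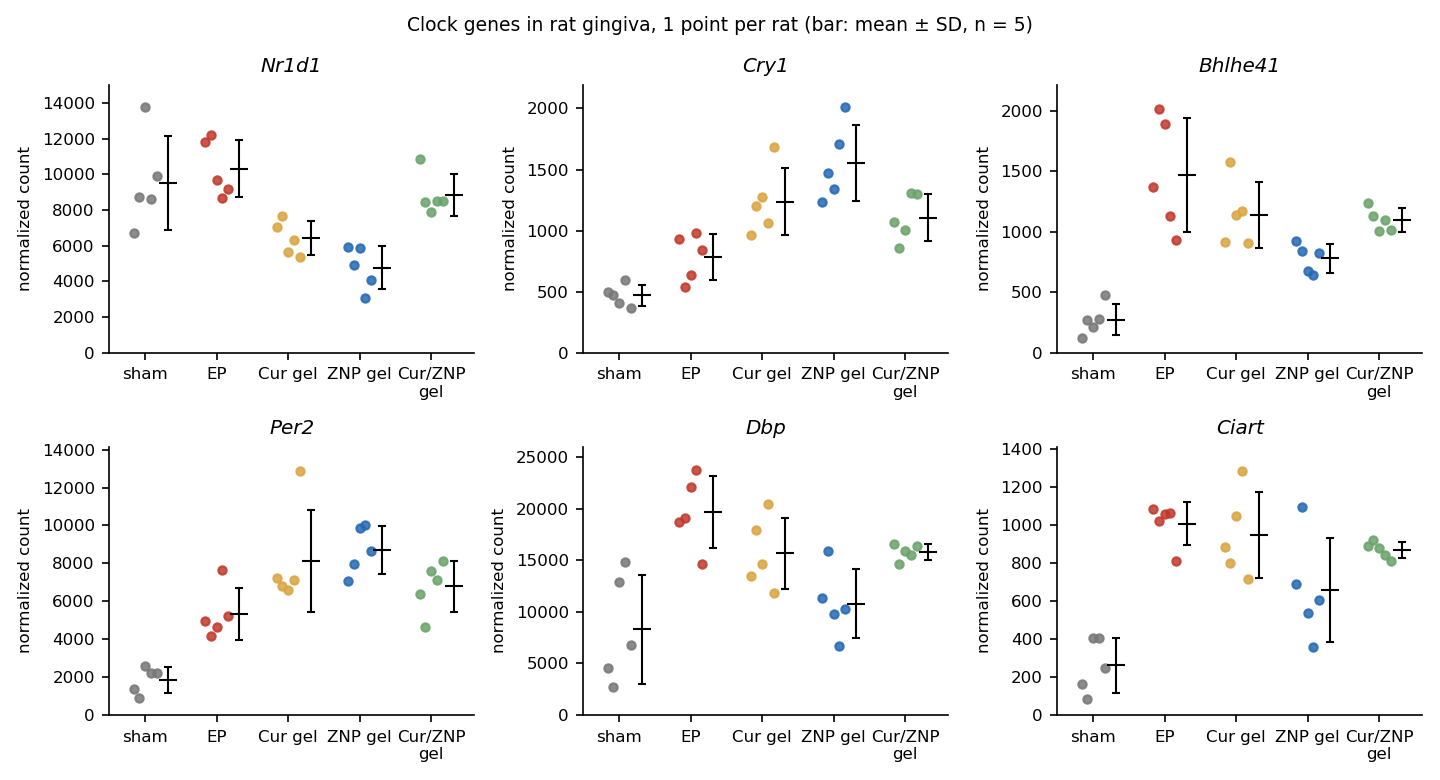
Normalized counts of 6 clock genes in the 5 groups, 1 point per rat, with the mean ± SD (n = 5) beside each group and axes that start at 0. ZNP gel and EP rats do not overlap in Nr1d1, Cry1 and Bhlhe41, and they overlap in Per2, Dbp and Ciart.

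Of 20 core clock genes tested 1 passed the threshold. With an unadjusted p under 0.05, 3 were higher and 3 lower in ZNP gel, against 1.61% and 1.38% of all genes. Without overlap, 1 was higher and 2 lower, against 0.267% and 0.292% of all genes. The third on the higher side was Timeless, which acts mainly at replication forks (log2 fold change 0.46, SE 0.218). Their median log2 fold change was 0.04 with all rats and -0.08 without EP 3 and EP 4, against 0.0056 over all genes with all rats. Arntl averaged 276 ± 53.8 in EP and 364 ± 47.2 in ZNP gel (log2 fold change 0.41, 95% interval -0.10 to 0.92), while Clock and Npas2, which encode the partners of BMAL1, had log2 fold changes of 0.08 and -0.34. Per1 and Per3 had -0.21 and 0.04, Cry2 0.14, and Nr1d2, which encodes REV-ERBβ, -0.24. Rora and Rorb, which encode receptors that activate the sites that REV-ERB represses, had 0.03 and -0.59. Csnk1d and Csnk1e, which encode kinases of PER proteins, both had 0.05, and Bhlhe40 (DEC1) had -0.28. The 7 clock output factors had a median of -0.20 (-0.13 without EP 3 and EP 4). Of these 1, Dbp, was lower at an unadjusted p under 0.05. Its relatives Tef and Hlf had -0.20 and 0.22, their repressor Nfil3 0.57, and the Krüppel-like factors Klf9, Klf10 and Klf15 -0.33, 0.24 and -0.49. Nfil3 and Npas2 moved with EP 3 and EP 4 left out, to 1.04 and -0.77, both still with an adjusted p of 1. The direction turned without them in Per3 (-0.12), Rora (-0.18) and Csnk1e (-0.08).

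Nr1d1 averaged 9541 ± 2641 in sham, 6421 ± 962 in Cur gel and 8854 ± 1164 in Cur/ZNP gel, so that ZNP gel was the lowest of the 5 groups. The log2 difference of ZNP gel was -0.45 from Cur gel (95% interval -0.83 to -0.08) and -0.92 from Cur/ZNP gel (-1.30 to -0.54), with adjusted p-values of 1 and 0.751. Cry1 averaged 469 ± 89.9 in sham, 1238 ± 276 in Cur gel and 1107 ± 194 in Cur/ZNP gel, and ZNP gel was the highest. Its log2 difference was 0.33 from Cur gel (-0.06 to 0.72) and 0.48 from Cur/ZNP gel (0.09 to 0.88), neither with an adjusted p under the threshold. Bhlhe41 and Ciart had lower means in sham (272 ± 129 and 261 ± 144) than in EP (1467 ± 471 and 1007 ± 114), and the ZNP gel means (780 ± 117 and 657 ± 272) stood between the 2. Per2 had its lowest group mean in sham, 1851 ± 689. Without sham 4 the sham means (n = 4) were 9776 ± 2988 for Nr1d1, 436 ± 60.4 for Cry1, 271 ± 149 for Bhlhe41, 225 ± 139 for Ciart and 1757 ± 758 for Per2.

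Over all genes, ZNP gel differed from Cur gel in 0 genes by limma (183 at an unadjusted p under 0.05, 1.14%) and in 7 by DESeq2. From Cur/ZNP gel it differed in 0 by limma (818, 5.08%) and in 22 by DESeq2, and edgeR called 0 in both comparisons. Both comparisons use the same 5 ZNP gel libraries as the one with EP.

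Outside the clock, the leading genes are taken from those without overlap that had a symbol and averaged a log2 CPM of 1 or more, as the 12 of smallest p in each direction. None passed the threshold except Nr1d1. Plk5, a kinase of the polo family that lacks a working kinase domain in humans, had 205, 249, 158, 252 and 264 in EP and 549, 503, 698, 679 and 434 in ZNP gel. All ZNP gel rats were well above all EP rats (log2 fold change 1.34, SE 0.321, adjusted p = 1 in limma and 0.0138 in DESeq2). Nrg4, an epidermal growth factor-like ligand of ERBB4, had 0.95, but the EP rats at 591 and 555 lay near the lowest ZNP gel rat at 593. Smaller differences separated the groups in Igsf8, a tetraspanin partner (0.46), the exosome subunit gene Exosc6 (0.47), the folate carrier gene Slc19a1 (0.30), Bcl2l12 (0.29), Meaf6, a subunit of histone acetyltransferase complexes (0.33), and the splicing factor gene Sf3a3 (0.24).

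On the lower side Nucks1, a nuclear DNA-binding protein gene, had 3248, 3090, 3157, 3383 and 2936 in EP and 2713, 2432, 2616, 2801 and 2586 in ZNP gel. The step was small and even across rats (log2 fold change -0.27, SE 0.0789, adjusted p = 1). Atxn7l1 had -0.47, Ppp2r5c, a regulatory subunit of phosphatase PP2A, -0.26, and Cobll1, a relative of the actin regulator cordon-bleu, -0.38. Edar, the ectodysplasin receptor gene of skin appendages and teeth, had 338, 187, 152, 141 and 252 in EP and 112 to 132 in ZNP gel (log2 fold change -0.73). Its difference was -1.04 without EP 3 and EP 4 (adjusted p = 1), and the difference of ZNP gel from Cur/ZNP gel was -0.88 (adjusted p = 0.899). The nuclear receptor coactivator gene Ncoa6 had -0.24, Zmym4 -0.22, the ubiquitin ligase gene Lnx1 -0.45, the p53-binding protein gene Ppp1r13b -0.30 and Ccsap, a spindle protein gene that was high in EP 4, -0.95.

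Genes of DNA replication did not pass the threshold, and Pcna and Mcm10 were apart between the groups. Pcna, the sliding clamp of DNA polymerases, had 2823, 2200, 2637, 2767 and 3197 in EP and 3890, 3647, 3817, 3956 and 3445 in ZNP gel. Mcm10, which works with the replicative helicase, had 277, 250, 218, 250 and 281 in EP and 471, 323, 436, 543 and 308 in ZNP gel. Neither gene overlapped between groups (log2 fold changes 0.47 and 0.67, adjusted p = 1 for both). Among 24 proliferation genes 0 passed the threshold and 3 were higher at an unadjusted p under 0.05, against 1.61% of all genes. These 3 were Pcna and the helicase subunit genes Mcm6 (0.62) and Mcm5 (0.52). The median of the list was 0.05 (0.09 without EP 3 and EP 4), with 14 genes above 0 and 10 below. Sham gingiva averaged 4385 ± 1025 for Pcna, above both groups, and 4435 without sham 4.

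Of 14 glucocorticoid response genes 0 passed the threshold and 4 were higher at an unadjusted p under 0.05, against 1.61% of all genes. The list median was 0.28 (0.36 without EP 3 and EP 4). Tsc22d3, which encodes the anti-inflammatory protein GILZ, had 10176, 7190, 6376, 7737 and 8267 in EP and 9944, 8992, 14512, 14643 and 13997 in ZNP gel. ZNP gel 3, 4 and 5 were above every EP rat, and ZNP gel 1 and 2 lay between EP 5 and EP 1 (log2 fold change 0.63, SE 0.175, adjusted p = 1). Zbtb16, which encodes the transcription factor PLZF, had 1.20, Angptl4, an inhibitor of lipoprotein lipase, 0.92, and Fkbp5, a chaperone that dampens the glucocorticoid receptor, 0.68. Tsc22d3 averaged 4775 ± 1215 in sham (4852 without sham 4), and 13653 ± 2055 and 14107 ± 1827 in Cur gel and Cur/ZNP gel, where the mean of ZNP gel was 12417 ± 2724. Per1, which glucocorticoids also induce, did not share this order, with 6316 ± 1651 in EP and 5372 ± 529 in ZNP gel. Its EP mean was raised by EP 4, at 9258, where the other EP rats had 5405 to 5752 and ZNP gel rats 4965 to 6297.

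Zinc-handling genes did not pass the threshold. None of 14 zinc exporters and metallothioneins had an unadjusted p under 0.05, and their median log2 fold change was -0.10 (-0.08 without EP 3 and EP 4). Slc30a1, the zinc exporter of the cell surface, had 2121, 1648, 1984, 1764 and 1818 in EP and 1893, 1784, 1569, 1858 and 1461 in ZNP gel. The ranges overlapped over most of their length (log2 fold change -0.13, 95% interval -0.66 to 0.41). Mt1, listed here on chromosome 17, had 607, 791, 726, 413 and 705 in EP and 1074, 573, 332, 559 and 707 in ZNP gel. Mt2A on chromosome 19 had 4680, 3189, 2221, 2232 and 5150 in EP and 5621, 4156, 2863, 3377 and 3749 in ZNP gel. The 95% intervals of their fold changes, not adjusted over genes, ran from -0.82 to 0.69 and from -0.53 to 0.99, and reads of near-identical metallothionein copies may have been split between genes. Mt3, Slc30a4 and Slc30a6 had 0.82, -0.17 and -0.25 with all rats. Without EP 3 and EP 4 they had -0.16, 0.03 and -0.04, so that Mt3 and Slc30a4 turned direction, as did Mt2A (-0.14).

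Among 13 zinc importers, 1 gene was higher and 1 lower with p under 0.05 before adjustment, with a median of -0.06 with and without EP 3 and EP 4. Slc39a5, an importer of the basolateral surface of epithelia, had 339, 354, 316, 275 and 371 in EP and 460, 512, 588, 539 and 587 in ZNP gel. Its groups did not overlap (log2 fold change 0.70, SE 0.223, adjusted p = 1), and sham rats averaged 730 ± 257 (712 without sham 4). Slc39a9 had -0.34 and Slc39a7, the importer that releases zinc from the endoplasmic reticulum, -0.59. Both moved with EP 3 and EP 4, where Slc39a7 was at 14406 and 17082 and the other EP rats at 5211 to 10734, and without them the differences were -0.06 and -0.16.

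**Figure D3:**
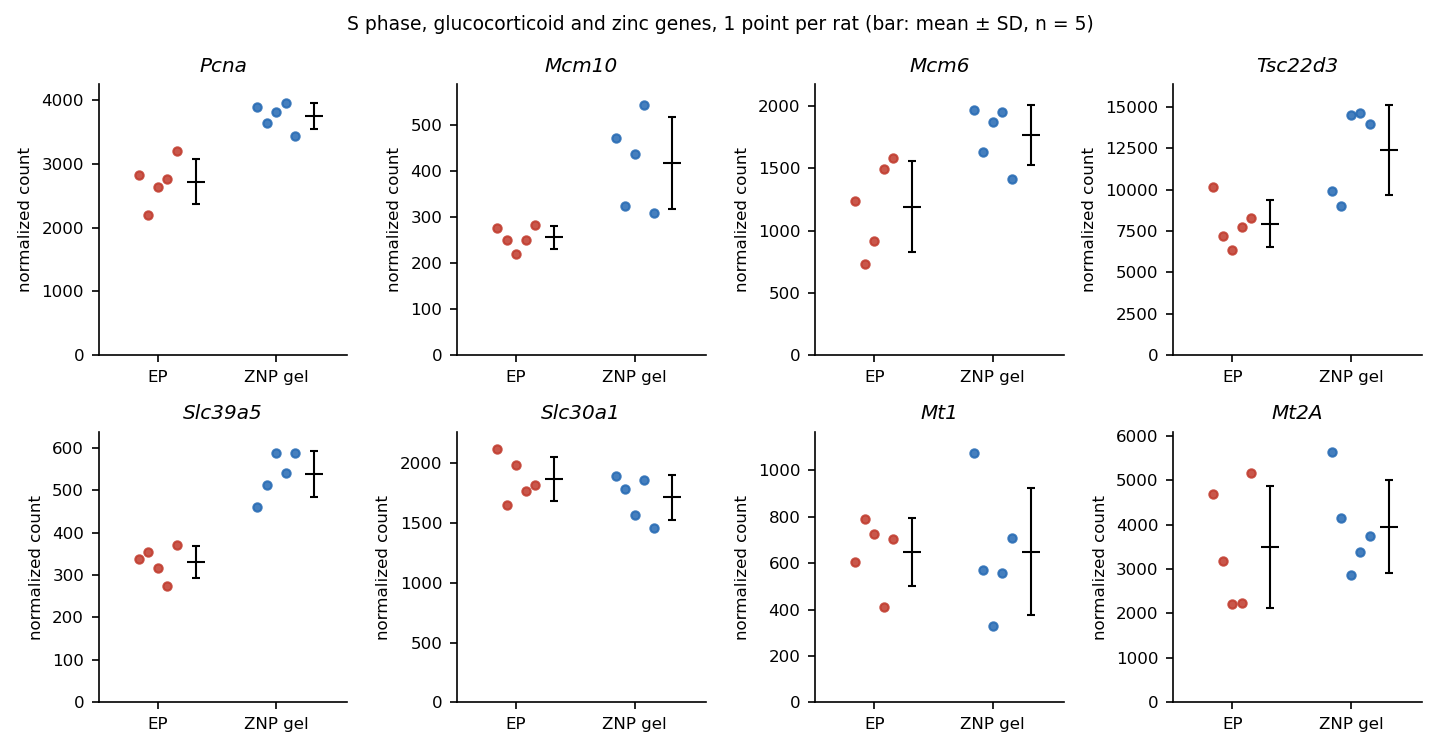
Normalized counts of 8 genes of DNA replication (Pcna, Mcm10, Mcm6), glucocorticoid response (Tsc22d3) and zinc handling (Slc39a5, Slc30a1, Mt1, Mt2A) in EP and ZNP gel, 1 point per rat, with the mean ± SD (n = 5) and axes that start at 0. The groups are apart in Pcna, Mcm10 and Slc39a5 and overlap in Mcm6, Tsc22d3, Slc30a1, Mt1 and Mt2A.

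Lists of stress pathways gave no gene past the threshold. In the NRF2 pathway, which switches on detoxifying enzymes under oxidative stress, 2 of 17 genes were higher at an unadjusted p under 0.05 and 16 of 17 fold changes were above 0. Over all genes these shares were 1.61% and 51.3%. The list median was 0.15 (0.09 without EP 3 and EP 4). Aldh3a1, an aldehyde dehydrogenase of stratified epithelia, had 21369, 9868, 6459, 6030 and 23166 in EP and 23154, 32610, 25241, 32091 and 34434 in ZNP gel. EP 1 and EP 5 lay near or in the ZNP gel range and EP 3 and EP 4 were the lowest, and the log2 fold change was 1.36 with all rats and 0.78 without EP 3 and EP 4 (adjusted p = 1 for both). Gsta1, a glutathione transferase gene of a family with near-identical copies, had 0.83. Of 18 antioxidant enzymes 1, Txn1 (thioredoxin), was higher at an unadjusted p under 0.05, at 0.51 with all rats and 0.27 without EP 3 and EP 4, and the peroxiredoxin gene Prdx1 had 0.25. The median of the 18 was 0.09 with all rats and 0.01 without EP 3 and EP 4.

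All 13 heat shock genes had fold changes above 0, as did 51.3% of all genes. The list median was 0.28 (0.12 without EP 3 and EP 4), and 1 of the 13 had an unadjusted p under 0.05, the chaperone gene Hsph1 at 0.41. Among 18 endoplasmic reticulum stress genes the median was -0.21 with all rats and 0.11 without EP 3 and EP 4, and Atf3, a stress-induced factor, was the 1 gene with an unadjusted p under 0.05 (0.65). Ddit3, which encodes CHOP, had 0.39. Of 19 immediate early genes 1 was higher (Atf3) and 1 lower (Nr4a2, an orphan nuclear receptor, -0.69) at that level. The median of the 19 was -0.11 with all rats and -0.03 without EP 3 and EP 4. The Nr4a2 difference was -0.08 without EP 3 and EP 4, which had 1538 and 2429 where the remaining EP rats had 613 to 773.

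Immune lists all had medians above the 0.0056 of all genes and held no gene past the threshold. All 14 macrophage genes lay above 0, as did 51.3% of all genes, with a median of 0.42 (0.69 without EP 3 and EP 4). Of the 14, 2 had an unadjusted p under 0.05, Cd163, a haemoglobin scavenger receptor, and Mrc1, the mannose receptor. Cd163 had 805, 1022, 1552, 757 and 629 in EP and 3043, 729, 2119, 1613 and 1637 in ZNP gel. Of the ZNP gel rats 4 were above every EP rat and ZNP gel 2 was among the low EP values (log2 fold change 0.87, adjusted p = 1). Mrc1 had 0.68 and Folr2, a folate receptor of resident macrophages, 0.62. The 14 macrophage genes together summed to 23819 to 57601 in EP and 37236 to 70055 in ZNP gel.

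Interferon-stimulated genes had fold changes above 0 in 21 of 22 cases, against 51.3% of all genes. Their median was 0.46 (0.70 without EP 3 and EP 4), and 0 had an unadjusted p under 0.05. Mx2, an antiviral GTPase, had 600, 919, 1618, 632 and 462 in EP and 7657, 2447, 689, 774 and 1147 in ZNP gel. ZNP gel 1 was the high rat, and its 22 genes summed to 135060 against 24444 to 42669 in EP. Ifit1 was the exception, at -2.40 with an interval of -5.09 to 0.29. Of 27 cytokines and chemokines 2 were higher at an unadjusted p under 0.05, Csf3, the granulocyte growth factor (0.97), and Tgfb1 (0.29), with a list median of 0.39 with all rats and 0.81 without EP 3 and EP 4. ZNP gel 1 stood far above the other ZNP gel rats in Csf3 (247 against 59.2 to 71.8) and in Il10 (234 against 15.4 to 24.7).

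The medians of further immune lists were 0.09 over 16 NF-κB subunits and inhibitors, 0.09 over 18 Toll-like receptors and adaptors, 0.22 over 25 complement genes and 0.16 over 18 antigen presentation genes. They were 0.24, 0.21, 0.40 and 0.51, in the same order, without EP 3 and EP 4. Bcl3 and Nfkbia, an atypical and a classical inhibitor of NF-κB, had 0.37 and 0.26, C4b and C1qb 0.51 and 0.52, and Irak1, a kinase below the Toll-like receptors, -0.35. The Irak1 difference was -0.04 without EP 3 and EP 4. Medians were 0.11 for 11 neutrophil genes, 0.12 for 12 mast cell genes, 0.37 for 20 T and natural killer cell genes and 0.32 for 17 B and plasma cell genes. Of these 1 gene, the mast cell tryptase gene Tpsb2 (0.96), had an unadjusted p under 0.05. Leaving out EP 3 and EP 4 took the neutrophil median to 0.62, the mast cell median to 0.07, the T cell median to 1.07 and the B cell median to 1.42.

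Bone and matrix genes gave no gene past the threshold. Osteoclast genes had a median of 0.01 over 14 genes (0.07 without EP 3 and EP 4), with Ostm1, needed for the acid secretion that dissolves bone, at -0.34 and the proton pump subunit gene Atp6v0d2 at -1.87 on counts of 0 to 214. Without EP 3 and EP 4 Atp6v0d2 had -0.43 in limma and 0.56 in DESeq2. Osteoblast and mineral genes had a median of -0.09 over 18 genes (-0.14 without EP 3 and EP 4). Among them Enpp1, which makes the mineralization inhibitor pyrophosphate, had -0.45, and the osteocyte genes Sost and Mepe had -1.95 and -2.05 with intervals that spanned 0. Mepe ranged from 11.3 to 1966 in EP and from 0 to 435 in ZNP gel. Collagen and fibroblast genes had a median of -0.0064 over 22 genes, with Dcn at 0.40 and the collagen cross-linker Lox at -0.81, and 20 matrix proteases and inhibitors had 0.12. These 2 medians were -0.02 and 0.13 without EP 3 and EP 4. The Dcn difference of ZNP gel from Cur/ZNP gel was -0.68 (95% interval -1.12 to -0.24, adjusted p = 0.899).

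Epithelial genes varied with EP 3 and EP 4. Krt13, a keratin of non-cornified oral epithelium, had 437104, 200584, 89052, 86044 and 491521 in EP and 297497, 378551, 230998, 404154 and 613207 in ZNP gel. EP 3 and EP 4 were the lowest of the 10 rats, and the log2 fold change was 0.86 with all rats and 0.06 without those EP rats. The median of 23 differentiated keratinocyte genes was 0.38 with all rats and -0.16 without EP 3 and EP 4, with Lor (loricrin) going from 0.90 to 0.21 and Krtdap from 0.72 to 0.20. Of 13 basal keratinocyte genes 1 was higher at an unadjusted p under 0.05, Krt15 (0.86), and the list median was 0.22 with all rats and -0.07 without EP 3 and EP 4. The 4 tested genes of junctional epithelium and enamel had a median of 0.25 with all rats and 1.14 without EP 3 and EP 4.

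Lists of other tissues and of basic machinery held 1 gene with an unadjusted p under 0.05, in the nasal gland list. Medians were -0.0073 for 18 endothelial genes, among which Icam1 had 0.33, 0.13 for 7 erythrocyte genes, 0.02 for 16 adipocyte genes, 0.02 for 22 nerve and Schwann cell genes and 0.04 for 14 salivary gland genes. With EP 3 and EP 4 left out they were -0.09, 0.08, -0.20, -0.0043 and -0.41 in the same order. Skeletal muscle genes had -0.17 over 25 genes, and -0.61 without EP 3 and EP 4. Ribosomal protein genes had 0.12 over 39 genes and oxidative phosphorylation genes 0.0091 over 34, and without EP 3 and EP 4 they had 0.06 and -0.20.

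**Figure D4:**
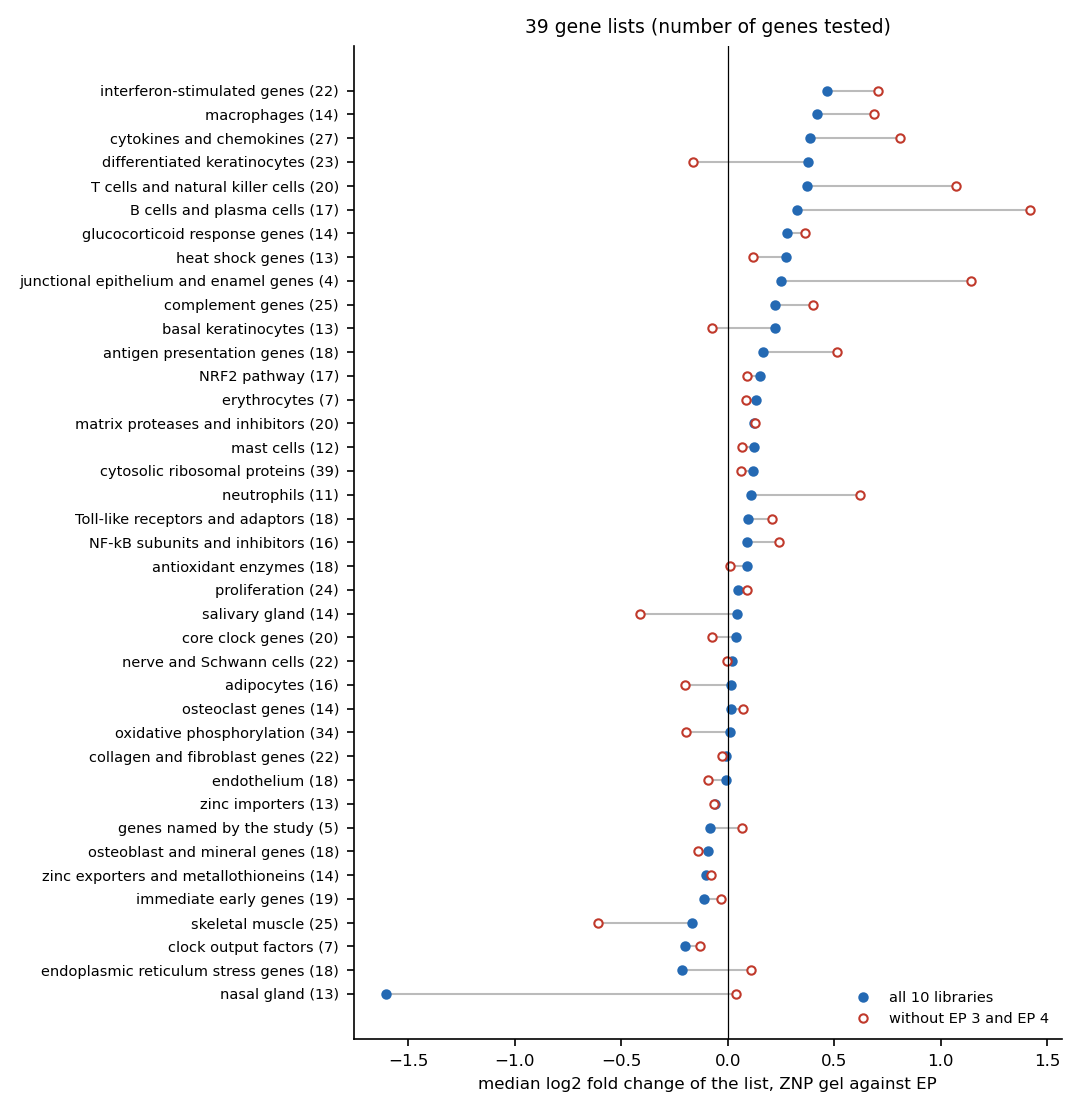
Median log2 fold change of ZNP gel against EP for 39 gene lists, with all 10 libraries (filled points) and without EP 3 and EP 4 (open points). The nasal gland list moves from -1.61 to 0.04, the B cell list from 0.32 to 1.42 and the differentiated keratinocyte list from 0.38 to -0.16, whereas the zinc importer list stays at -0.06. The sign of the median turned in 10 of the 39 lists.

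The paper names a set of bone and immune genes, of which Tnf and Il4 come up only where it cites earlier work. It measured osteocalcin and osteoprotegerin as protein, whereas the values here are RNA of gingiva. Ceacam1 RNA in gingiva, also measured by PCR, was reported as higher in EP, and lower in Cur/ZNP gel than in either single gel. None of the 5 genes of the set that passed the filter differed between ZNP gel and EP at an unadjusted p under 0.05, and Il4 was below the filter. The median of the 5 was -0.08 with all rats and 0.07 without EP 3 and EP 4. Ceacam1, an adhesion molecule of epithelia and leukocytes, had 1656, 2682, 5430, 5329 and 1791 in EP and 2384, 3400, 884, 1778 and 2553 in ZNP gel. EP 3 and EP 4 were the highest, and the log2 fold change was -0.56 with all rats (95% interval -1.63 to 0.50) and 0.01 without them. Cd47, the signal that restrains phagocytosis, had -0.08 (0.24 without EP 3 and EP 4), Bglap (osteocalcin) -0.54, Tnfrsf11b, the osteoprotegerin gene, 0.10, and Tnf 0.77 on counts of 5.82 to 57.8 in EP and 14.8 to 131 in ZNP gel. Ceacam1 differed from Cur/ZNP gel by 0.88 (95% interval -0.19 to 1.94) and Tnfrsf11b by -0.71 (-1.41 to -0.01, adjusted p = 0.899).

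The 61 DESeq2 calls consisted of 57 genes lower (0.354%) and 4 higher in ZNP gel. In 54 of the 57 lower genes EP 3 and EP 4 were above all 8 other libraries. Among the 57 were Obp1f, Obp2a, Obp2b, Pip, Mup4 and Mup5 of the nasal gland list. Others were loci without a gene name, or genes outside that list such as Mgat3 and Car2. Obp2a, an odorant-binding protein gene, had 756, 8278, 7761930, 11962500 and 2932 in EP and 675 to 5246 in ZNP gel, and Mup5, a pheromone carrier gene whose family has near-identical copies, had 114, 312, 221641, 386453 and 437 in EP and 56.4 to 674 in ZNP gel. The other EP rats thus lay within or near the ZNP gel range. Over the 13 nasal gland genes that passed the filter, 3 log2 fold changes were above 0 and 10 below with all rats. Their median was -1.61 with all rats and 0.04 without EP 3 and EP 4, and Obp1f went from -4.76 to 0.04.

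In 4 of the 61 calls the groups did not overlap, namely Nr1d1, Cry1, Plk5 and Dmbx1, a homeobox gene of the brain. Dmbx1 was at 0 in all 5 ZNP gel rats and at 5.82, 12.7, 1153, 2193 and 2.61 in EP, so its call also rested on EP 3 and EP 4. Without EP 3 and EP 4, DESeq2 called 7 genes, 2 lower and 5 higher, of which 5 were among the 61. Nr1d1 and Cry1 (adjusted p = 0.016) were called again. Of the rest, Slc18a3 had 4.23 in EP 2 and 0 in the other 9 rats, Sncb 4.28 in ZNP gel 5 and 0 in the other 9, and Gm45713 505 and 601 in ZNP gel 1 and 3 and 0 elsewhere. Sult4a1 had 0 to 21.1 in ZNP gel and 8.78 in EP 4 with 0 in the other EP rats, and AABR07051730.1 had 20.8 to 848 in ZNP gel and 3.88 to 23.5 in EP 1, 2 and 5, with 4749 and 1370 in EP 3 and EP 4.

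**Figure D5:**
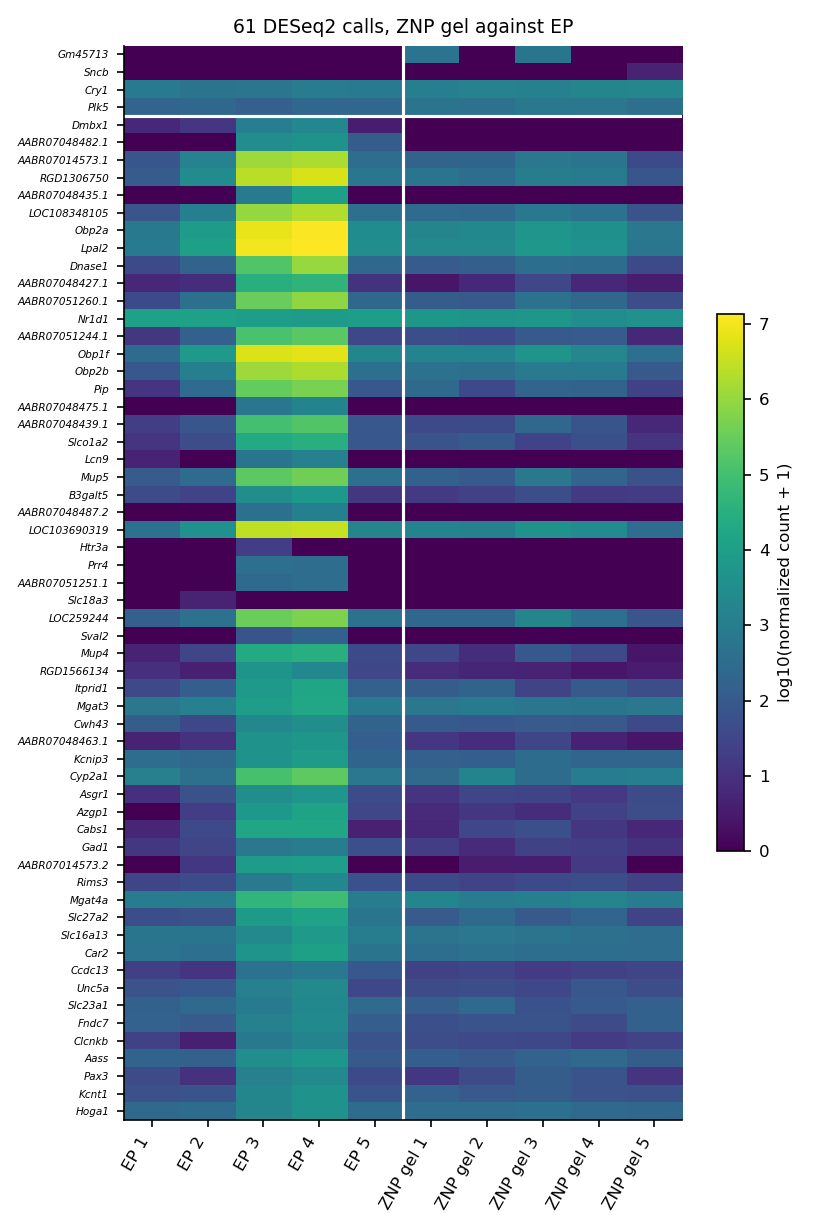
Log10(normalized count + 1) of the 61 genes that DESeq2 called between ZNP gel and EP (rows) in the 10 libraries (columns), with the 4 genes higher in ZNP gel above the white line. EP 3 and EP 4 are brighter than all other libraries in 54 of the 57 genes below the line, and Nr1d1 is high in all 5 EP rats.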

How the data were processed

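Gingival RNA was extracted with TRIzol, depleted of ribosomal RNA and made into stranded TruSeq libraries, 1 per rat. The signal table deposited by the authors gives reads of each Ensembl transcript (build Rnor_6.0) after division by 1 DESeq2 size factor a library, and the aligner and counter are not given in the sources used here. Each column held whole multiples of 1 step for 100% of its values (tolerance 0.01), which gave back the reads. Transcripts were summed per symbol and chromosome, and a gene was kept if any library reached 2 CPM. Because the values carry size factors, the main test was limma 3.58.1 (R 4.3.3, robust variance trend) on log2(normalized count + 1). The model held the 25 libraries of the series without a replicate block and was two-sided, with Benjamini-Hochberg adjustment. EdgeR 4.0.16 and DESeq2 1.42.0 on the recovered reads were alternatives, beside TMM log2 CPM, pseudocounts of 0.5 and 5, other filters, the 2 groups alone, a replicate block, each library left out, and EP 3 and EP 4 left out. DESeq2 without EP 3 and EP 4, the shared fit without sham 4, and single libraries left out in the comparisons with the other gels, were added after the data were seen. With 5 rats a group an exact permutation test cannot give a p below 0.00794.

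The comparison, the 39 gene lists (767 entries, 43 of them not found in the table analysed, 684 tested) and the clock windows were chosen with earlier results of these data known, so no list supports a direction. Genes named are those called, the 12 smallest p-values without overlap in each direction, up to 3 of each list, genes named by the study, non-overlapping DESeq2 calls and all clock genes, except that some genes under this rule are not reported here. Thra, Fkbp5, Mt1, Mt2A, Slc30a1 and Krt5 lie outside this rule. So do Obp2b, Pip, Mup4, Mgat3, Car2 and the DESeq2 calls made without EP 3 and EP 4. The same holds for Hoxc8, AABR07040887.1 and Ldb2, each called in a setting other than the fit reported. All of these were chosen after their values were seen. The scripts were tested on simulated counts.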

Additional observations from a re-analysis of the deposited data

Results flagged for a closer look

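In 12 of 218 groups of 5 examined, 1 rat lay far from the other 4, with the gap to its nearest neighbour over 0.71 of the group's range, which chance gives in about 5% of groups. In Per1 EP 4 was at 9258 against 5405 to 5752 in the other EP rats (gap 0.884 of the range), and ZNP gel 3 at 6297 against 4965 to 5264 in ZNP gel (0.754). Ciart had EP 5 low, at 808 against 1022 to 1084 (0.797). ZNP gel 1 was high in Csf3 (247 against 59.2 to 71.8, gap 0.866) and in Il10 (234 against 15.4 to 24.7, gap 0.832).

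Ddit3 was high in ZNP gel 5, at 2073 against 935 to 1173 (0.716), which was also the rat with the highest share of mitochondrial reads in its group, 14.8% against 9.01% to 10.7% (0.713). Krt15 was low in ZNP gel 3, at 3602 against 6794 to 8110 (0.782). Gsta1 was high in EP 1, at 5074 against 2325 to 2880 (0.726), and Ccsap in EP 4, at 521 against 121 to 169 (0.773). EP 2 was low in Exosc6 (145 against 282 to 332, gap 0.800) and high in Ppp1r13b (3213 against 2683 to 2802, gap 0.760).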

How the results depend on the processing

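Between ZNP gel and EP, 1 gene was called in the fit reported. The count was 0 with edgeR under TMM (705 at an unadjusted p under 0.05) or RLE factors (707), with TMM log2 CPM (480), with the filterByExpr filter (566), with the 2 groups alone (610) and without EP 3 and EP 4 (162). It was also 0 without sham replicate 4 (691). It was 3 with no filter (2 higher, Hoxc8 and AABR07040887.1, with log2 fold changes of 1.79 and 1.84), 61 with DESeq2 and 7 with DESeq2 without EP 3 and EP 4, and 0 to 1 with each library left out, 0 in 8 of 10. DESeq2 called 7 genes against Cur gel and 22 against Cur/ZNP gel where limma called 0, and leaving out ZNP gel replicate 3 gave 1 against Cur/ZNP gel, Ldb2 (-0.89, adjusted p = 0.0226), the range there being 0 to 1. The cause of these changes was not tested.

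Replicate numbers did not pair the rats: deviations of same-numbered EP and ZNP gel libraries correlated from -0.242 to 0.180, over 0.1 in 2 of 5 pairs, and 0 of 5 EP libraries correlated best with their own number. With a replicate block the count was 0 (546 at an unadjusted p under 0.05) and the adjusted p of Nr1d1 0.0752.

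Among 104 genes of the text that were followed across the settings, the direction of 13 turned in some settings. With single libraries left out the log2 fold change ran from -0.22 to 0.031 in Thra, -0.27 to 0.15 in Mt1, -0.23 to 0.068 in Cd47, -0.062 to 0.15 in Per3, -0.023 to 0.10 in Csnk1e, -0.11 to 0.13 in Rora and -0.066 to 0.24 in Tnfrsf11b. With edgeR and TMM factors it was 0.0061 in Mt1. Without EP 3 and EP 4 it turned to 0.24 in Cd47, 0.0073 in Ceacam1, -0.077 in Csnk1e, -0.14 in Mt2A, -0.16 in Mt3, 0.036 in Obp1f, -0.12 in Per3, -0.18 in Rora and 0.033 in Slc30a4. With DESeq2 and without EP 3 and EP 4 it turned to 0.56 in Atp6v0d2, 0.24 in Cd47, 0.10 in Ceacam1, -0.076 in Csnk1e, -0.14 in Mt2A, -0.072 in Mt3, -0.095 in Per3, -0.17 in Rora and 0.036 in Slc30a4.

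Of the 104 genes followed, 91 kept their direction in each of 24 settings. Krt5 and genes named only as calls, such as Mgat3 and AABR07051730.1, were not among the 104. List medians stayed within the spread in 915 of 936 cases. Reads, and the shares of mitochondrial, ribosomal protein, nasal gland and 10 highest genes, gave exact permutation p-values adjusted over the 5 measures of 0.248 to 0.476 between the groups, where the design allows no p below 0.00794. Genes with few reads, such as Il10, Sost and Ifit1, had intervals several log2 units wide.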

Other observations

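Among the ZNP gel rats, ZNP gel 1 had the highest sums of several immune lists. This rat and ZNP gel 5 are described because their sums stood out once the values had been seen, and no test was run on them. Its 18 antigen presentation genes summed to 342057 against 128484 to 199195 in the other ZNP gel rats and 102608 to 257460 in EP, and its 25 complement genes to 245414 against 102346 to 167389 and 101461 to 181761. Its cytokine and chemokine genes summed to 69625, where the other ZNP gel rats had 30032 to 44400 and EP rats 29649 to 42542. Neutrophil genes did not set it apart, with 83508 in ZNP gel 1, 78002 in ZNP gel 2 and up to 123992 in EP.

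ZNP gel 5 had the highest sum of skeletal muscle genes, 4083670 against 459876 to 1734430 in the other ZNP gel rats and 514750 to 2507910 in EP. It also had the highest sum of oxidative phosphorylation genes, 1035240 against 347738 to 526728 in ZNP gel and 346834 to 707440 in EP, and the highest mitochondrial share of its group. Whether the amount of muscle in the biopsy has a part in these values was not tested. Over 30 mitochondrial genes the median log2 fold change between the groups was 0.145, with 0 genes past the threshold.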
